A study of Triticum aestivum with 18 samples.

Results

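The annotated starch genes of hexaploid bread wheat were followed through salt stress and through salt stress combined with 3-methyladenine (3-MA). They were taken as every gene with a TraesCS identifier whose description names a starch synthase, a starch branching enzyme, glucose-1-phosphate adenylyltransferase, an amylase or a glucan phosphorylase. That gave 111 genes of 134610 in the table, of which 107891 carried a TraesCS identifier and 12327 of those had a description. The 111 genes held 35 alpha-amylases, 28 beta-amylases, 18 starch synthases, 11 subunits of ADP-glucose pyrophosphorylase (the enzyme described as glucose-1-phosphate adenylyltransferase), 9 alpha-glucan phosphorylases, 1 starch branching enzyme, 1 isoamylase 3 and 8 amylase inhibitors, which are not starch enzymes but match the word amylase. Seedlings were of the NaCl-tolerant cultivar Jimai 22. The root groups were TMG (5 mM 3-MA with 150 mM NaCl), TG (150 mM NaCl) and CG (no NaCl and no 3-MA), and the groups of leaves (the third leaf) were TMY, TY and CY with the same treatments in that order. Where used, 3-MA was given 5 h before the salt, and tissue was taken after 4 days. Each group held 3 libraries, each from a pool of 10 roots or leaves, so the spread given here is that between pools. No sequenced group received 3-MA without NaCl, so each 3-MA comparison is one within salt-stressed seedlings.

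Starch is stored glucose. ADP-glucose pyrophosphorylase makes ADP-glucose, starch synthases add its glucose to growing chains, and branching enzymes introduce the branch points. Breakdown in leaves runs mainly through beta-amylases, which release maltose from chain ends, while alpha-amylases cut inside chains, isoamylases remove branches and glucan phosphorylases release glucose-1-phosphate. Leaf starch is built by day and consumed by night, and alpha-amylases are best known in cereals from germinating grain. 3-MA blocks phosphatidylinositol 3-kinase and is widely used to inhibit autophagy.

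Depth was similar in all libraries, at 27156078 to 33150906 gene counts. Levels are given as CPM (counts divided by library depth to a common scale), adjusted by trimmed-mean (TMM) factors over the 18 libraries, and genes are compared with one another only as CPM per kb of the listed gene length. Leaf markers separated the tissues: 186 genes of the photosystems, the chlorophyll-binding proteins and the small Rubisco subunit summed to 20.6 CPM in TMG, 92.9 CPM in TG and 472 CPM in CG roots, and to 20620 CPM in TMY, 41010 CPM in TY and 143700 CPM in CY leaves. These leaf markers fell with treatment inside each tissue, with 106 of 120 tested lower in TY than in CY, 56 of 98 lower in TMY than in TY, 51 of 60 lower in TG than in CG and 37 of 41 lower in TMG than in TG. The CY libraries ranged from 90880 to 204100 CPM for that sum. Among 38 genes of endosperm storage proteins, 36 were at 0 counts in TMG, 37 in TG and 37 in CG, and all 38 in each leaf group. The 167 genes described as Casparian strip proteins, their relatives or nicotianamine synthases did not separate the tissues as a sum, at 736 CPM in CG and 718 CPM in CY. Gene by gene, 45 of 86 tested were higher in CG and 23 lower, where 36.1% of all genes tested were higher and 29.3% lower. Their median log2 fold change was 0.85, against 0.14 over all genes. In bulk tissue a smaller number of cells of a type and less RNA per cell cannot be told apart.

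Not all the genes were detected. Among the 111, 23 had no count in any of the 18 libraries and 9 had between 1 and 9 counts in all, and 68 had enough counts to be tested in at least 1 comparison. The untested genes were 24 of the 35 alpha-amylases, all 8 inhibitors, 6 beta-amylases, 3 glucan phosphorylases and 2 starch synthases. Of the untested alpha-amylases, 11 lay on chromosomes 6A, 6B and 6D. The inhibitor with the highest level, TraesCS6B02G102900, reached 0.104 CPM per kb in TG roots and 0.172 CPM per kb in CG roots.

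**Figure D1:**
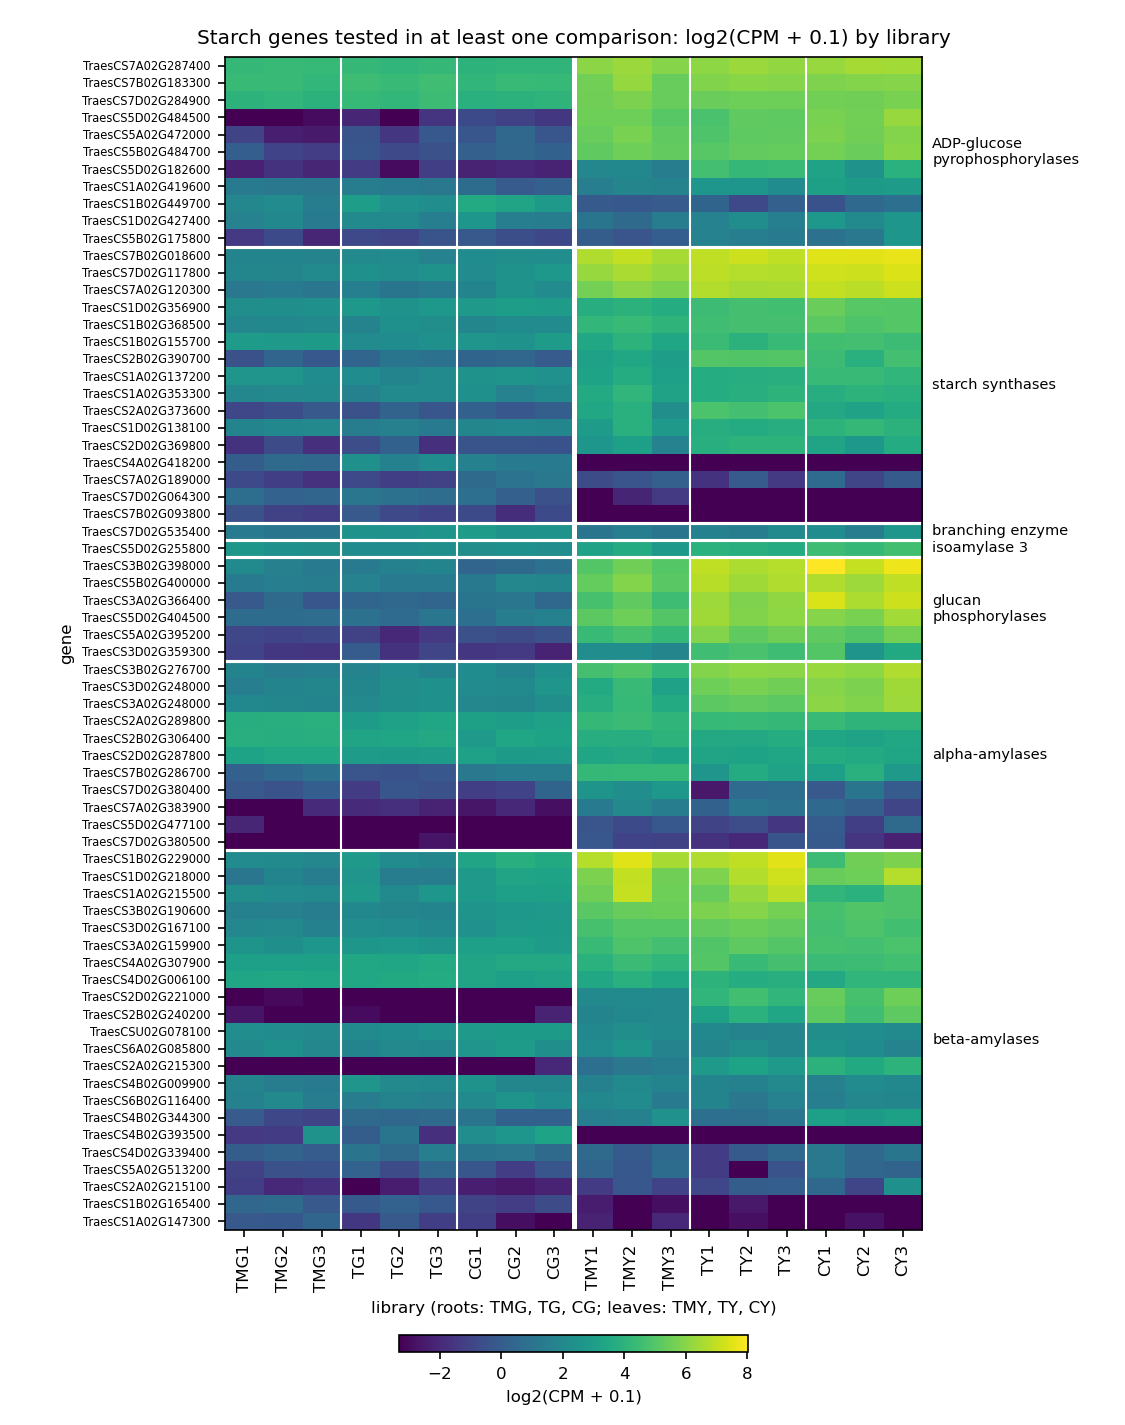
Level of each of the 68 tested starch genes (rows, grouped by role) in each of the 18 libraries (columns; 3 root groups on the left, 3 leaf groups on the right), as log2(CPM + 0.1). Most rows are brighter in leaves, and the beta-amylase TraesCS4B02G393500 and the starch synthase TraesCS4A02G418200 are at 0 in every leaf library.

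Untreated roots held far less starch-gene RNA than untreated leaves. Of 61 genes tested in CG against CY, 47 were lower and 5 higher in roots, or 85.2% called, against 65.4% of all genes tested (29.3% lower and 36.1% higher). The median log2 fold change of the starch genes was -2.17, against 0.14 over all genes. The summed level of the 111 genes was 123 ± 3.31 CPM per kb in CG and 875 ± 117 CPM per kb in CY (SD, n = 3 each). All 6 tested glucan phosphorylases were lower in roots, with a median log2 fold change of -6.16, against medians of -2.43 for the ADP-glucose pyrophosphorylases, -2.25 for the starch synthases, -1.54 for the alpha-amylases and -1.36 for the beta-amylases. Library-size scaling shifted the median of all genes by 0.59 in this comparison and gave 44 genes lower and 10 higher. The count of higher genes was 8 without CG2 and 9 without any 1 of the CY libraries. Of the 52 calls, 3 were lost under library-size scaling, those of the beta-amylases TraesCS4D02G006100 and TraesCS5A02G513200 and of an alpha-amylase. That gene, TraesCS2D02G287800, had a log2 fold change of -0.58 (adjusted p = 0.015), and 0.01 under that scaling.

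In leaves the highest per length of each role were the starch synthase TraesCS7B02G018600 at 51.4 CPM per kb over the 9 leaf libraries, the beta-amylase TraesCS1B02G229000 at 46.3, the glucan phosphorylase TraesCS3B02G398000 at 38.5, the pyrophosphorylase TraesCS7A02G287400 at 35.4 and the alpha-amylase TraesCS3D02G248000 at 17.4. Over the 9 root libraries they were another pyrophosphorylase, TraesCS7B02G183300, at 8.97 CPM per kb, the alpha-amylase TraesCS2B02G306400 at 5.42, the beta-amylase TraesCS4D02G006100 at 5.06 and the starch synthase TraesCS1B02G155700 at 1.97. These ranks pool treated and untreated libraries, and several differ by group. In CY the beta-amylase TraesCS1D02G218000, at 32.1 CPM per kb, stood above TraesCS1B02G229000 at 19.0. In TMY the phosphorylase TraesCS5B02G400000, at 13.1 CPM per kb, stood above TraesCS3B02G398000 at 12.4, and the alpha-amylase TraesCS2A02G289800, at 8.75, above TraesCS3D02G248000. In CG the beta-amylase TraesCS1B02G229000, at 5.40 CPM per kb, stood above TraesCS4D02G006100 at 4.39. TraesCS1B02G155700 was the highest starch synthase in TMG alone, since TraesCS1D02G356900 was above it in CG and TraesCS7D02G117800 in TG, and in TMG the pyrophosphorylase TraesCS7A02G287400, at 9.05 CPM per kb, stood above TraesCS7B02G183300 at 8.71.

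A few genes ran the other way. The beta-amylase TraesCS4B02G393500 had 4.57, 6.07 and 9.60 CPM in CG and no count in the CY libraries, so that it was at least 131-fold higher in roots when 3 counts over the group are taken as the floor. The starch synthase TraesCS4A02G418200 was likewise at least 52.8-fold higher in CG, at 3.08, 2.46 and 2.35 CPM, and a further starch synthase, TraesCS7D02G064300, at least 22.4-fold. The pyrophosphorylase subunit TraesCS1B02G449700 had a mean of 9.71 CPM in CG and 1.22 CPM in CY (log2 fold change 2.99). In the opposite direction the beta-amylase TraesCS2D02G221000 had no counts in CG and 42.2, 26.3 and 46.0 CPM in CY, at least 1100-fold lower in roots.

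The 4 treatment comparisons touched the starch genes unequally. In TMY against TY, 3 of 62 tested genes were higher and 20 lower, or 37.1% called, where 18.4% of all genes tested were called (8.44% higher and 9.94% lower). In TY against CY, 8 of 61 were higher and 12 lower (32.8%, with 23.3% over all genes, 10.1% higher and 13.2% lower). In TG against CG, 4 of 58 were higher and 11 lower (25.9%, with 35.6% over all genes, 18.5% higher and 17.1% lower), and in TMG against TG 4 of 59 were higher and 5 lower (15.3%, with 20.2% over all genes, 8.16% higher and 12.0% lower). The median log2 fold changes of the tested starch genes were -0.36, -0.24, -0.16 and -0.23 in that order, beside 0.00, 0.02, 0.03 and -0.01 over all genes. Scaling by library size alone moved the median of all genes by 0.35 in TY against CY, 0.23 in TG against CG and 0.15 in TMY against TY. Under that scaling the starch genes called were 14 higher and 3 lower in TY against CY, 9 higher and 6 lower in TG against CG, 5 higher and 4 lower in TMG against TG, and 3 higher and 18 lower in TMY against TY. Directions below are therefore relative to the bulk of genes in the same libraries.

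Calls were also refitted with 1 library left out, which leaves 2 in that group, and the low-count filter was run again each time. A lost call can come from the library left out or from the smaller number, and these cannot be told apart here. With 1 library left out at a time, 11 of the 23 calls in TMY against TY, 7 of the 20 in TY against CY, 7 of the 15 in TG against CG and 2 of the 9 in TMG against TG were kept in all 6 refits. In TMY against TY the count was 11 without TMY1 (library 1 of TMY) and 16 or more without any other library. In TY against CY it was 9 without TY1, 11 without TY2 and 8 without TY3 or CY1. In TG against CG it was 7 without CG2, 8 without TG2 or TG3 and 9 without CG3, and in TMG against TG it was 3 without TMG2 or TMG3, 4 without TG2 and 5 without TMG1.

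**Figure D2:**
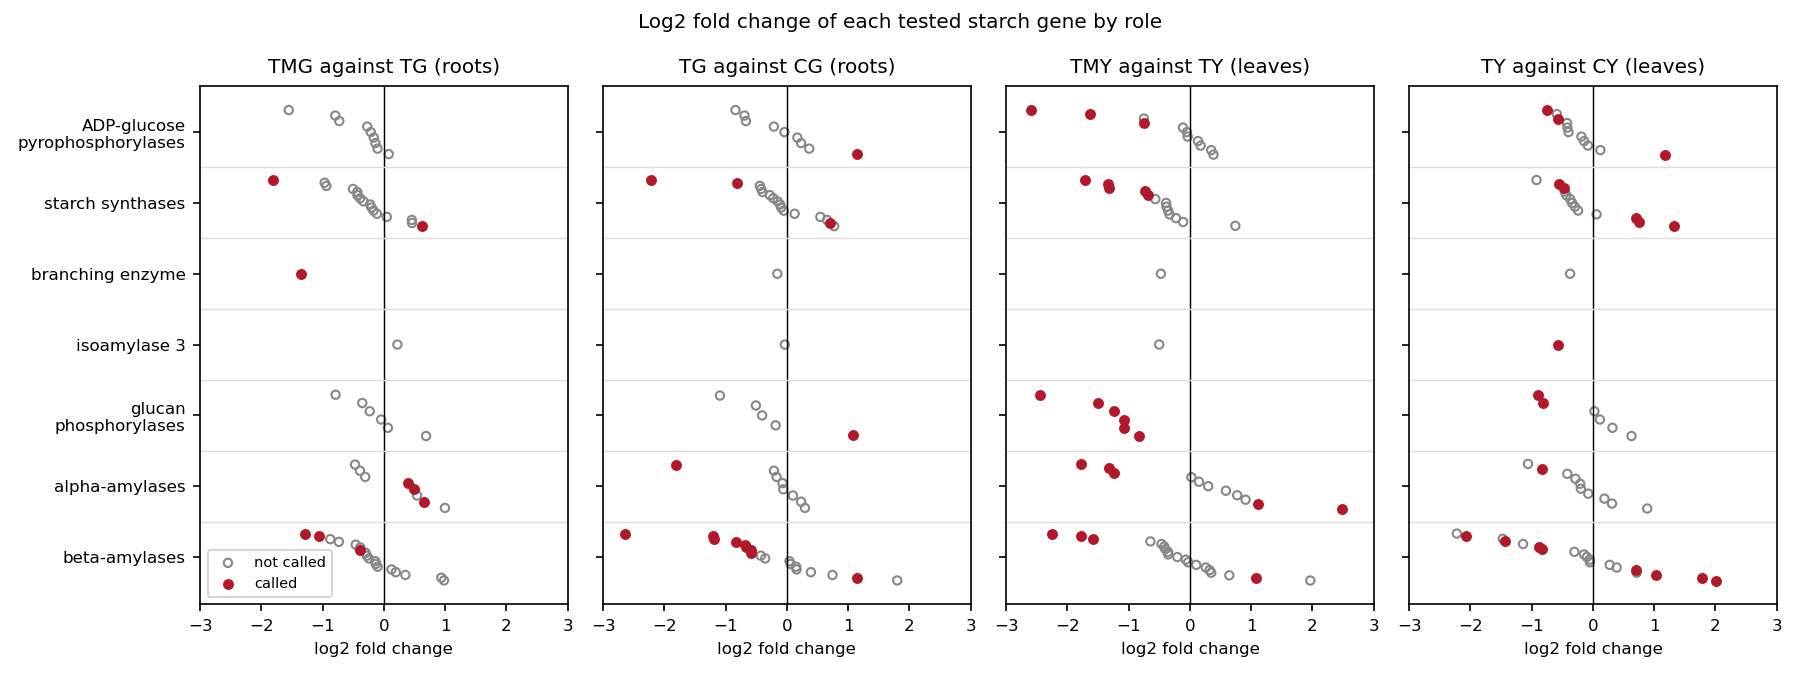
Log2 fold change (x axis) of each tested starch gene, by role (y axis), in the 4 treatment comparisons, with filled points for genes called at an edgeR adjusted p of 0.05 or less and open points for the others. All 6 glucan phosphorylases lie left of 0 as filled points in TMY against TY, and beta-amylases spread to both sides in TY against CY.

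All 6 tested glucan phosphorylases fell in TMY leaves, with a median log2 fold change of -1.16, and all 6 did so under each scaling. Of all genes tested in TMY against TY, 9.94% were called lower. TraesCS3B02G398000, the most abundant in TY and CY but not in TMY (chromosome 3B, 628396671 to 628403124, minus strand, in the coordinates of the deposited table), had 32.0, 47.2 and 32.4 CPM in TMY and 122, 99.7 and 107 CPM in TY. The groups did not overlap, and the log2 fold change was -1.50 ± 0.19 (SE; edgeR adjusted p = 0.00258). Its copy TraesCS3A02G366400 had 26.1, 37.8 and 22.3 CPM in TMY and 83.2, 56.2 and 71.4 CPM in TY (-1.24, adjusted p = 0.00943). The D copy, TraesCS3D02G359300, showed the deepest fall, with 4.61, 4.66 and 3.50 CPM in TMY and 22.9, 27.3 and 22.6 CPM in TY (-2.46 ± 0.18, adjusted p = 0.000695). The chromosome 5 copies TraesCS5A02G395200, TraesCS5B02G400000 and TraesCS5D02G404500 fell by 1.08, 1.07 and 0.84 on the log2 scale. The calls of TraesCS3B02G398000 and TraesCS3D02G359300 were kept whichever library was left out. Those of TraesCS3A02G366400 and TraesCS5A02G395200 were lost only without TMY1 (adjusted p = 0.0504 and 0.0549), that of TraesCS5B02G400000 without TMY1 or TY1 (up to 0.0628), and that of TraesCS5D02G404500 without TMY1, TMY3, TY1 or TY3 (up to 0.0954). The summed leaf markers were also lower in TMY than in TY, and their part in these falls was not tested.

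With salt alone 2 of the 6 phosphorylases fell in leaves (33.3% called, beside 23.3% of all genes tested). TraesCS3B02G398000 had 122, 99.7 and 107 CPM in TY and 260, 130 and 211 CPM in CY (-0.81 ± 0.25, adjusted p = 0.0441), and TraesCS3A02G366400 fell by 0.90 (adjusted p = 0.0243). Both calls depended on which library was left out, being lost without TY2, TY3, CY1 or CY3 (for the first also TY1), with adjusted p up to 0.133 and 0.077, and on the scaling, since neither passed under library size alone. The first was also lost when only TraesCS genes were fitted. The other copy of that set, TraesCS3D02G359300, was not called at 0.63, and the 3 chromosome 5 copies lay between 0.02 and 0.32. In roots all 6 genes were scarce, at a mean of 0.21 to 3.21 CPM in CG. TraesCS3B02G398000 rose there with salt, to 2.56, 3.09 and 3.39 CPM in TG, against 1.19, 1.39 and 1.79 CPM in CG (1.08 ± 0.24, adjusted p = 0.0102), and the call was kept in all 6 refits. Its CG level was 0.727% of its CY level, where the leaf markers stood at 0.329%. The leaf markers fell in TG, and their part in the level of this gene was not tested. No phosphorylase was called in TMG against TG by edgeR, with 0 of 6 at an unadjusted p under 0.05.

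Of the 11 alpha-amylases tested, 10 lay on the chromosomes of groups 2, 3 and 7. All 3 chromosome 3 copies, which were lower in roots than in leaves, fell in TMY. TraesCS3D02G248000 (chromosome 3D, 346842515 to 346853518) had 12.0, 20.2 and 8.96 CPM in TMY and 45.6, 54.1 and 46.7 CPM in TY, a log2 fold change of -1.78 ± 0.28 (adjusted p = 0.00507). Likewise TraesCS3B02G276700 had 25.8, 30.5 and 17.9 CPM in TMY and 60.3, 67.6 and 65.3 CPM in TY (-1.33, adjusted p = 0.00468), and TraesCS3A02G248000 had 13.2, 19.4 and 12.3 CPM in TMY and 36.2, 38.8 and 35.5 CPM in TY (-1.25, adjusted p = 0.00462). None of the 3 calls was lost in any refit or alternative. The leaf markers fell in TMY as well, and their part in these falls was not tested. With salt alone only TraesCS3A02G248000 passed, at 36.2, 38.8 and 35.5 CPM in TY and 66.2, 57.8 and 81.6 CPM in CY (-0.83, adjusted p = 0.00844). TraesCS3B02G276700 and TraesCS3D02G248000 had log2 fold changes of -0.29 and -0.42 in that comparison.

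On chromosome 7, 2 alpha-amylases rose in TMY. TraesCS7B02G286700 had 19.0 CPM in each TMY library and 5.86, 12.4 and 9.20 CPM in TY (1.11 ± 0.26, adjusted p = 0.021). TraesCS7D02G380400 had 5.73, 4.60 and 6.53 CPM in TMY and 0.0719, 1.45 and 1.60 CPM in TY, with TY1 far below TY2 and TY3 (2.49 ± 0.67, adjusted p = 0.0371). Neither call was firm: the first was lost without TMY1, TMY3 or TY3 (up to 0.0705) and the second without TMY1, TMY3, TY2 or TY3 (up to 0.109). In roots TraesCS7B02G286700 fell with salt, at 0.698, 0.628 and 0.751 CPM in TG and 2.25, 2.64 and 2.58 CPM in CG (-1.81 ± 0.25, adjusted p = 0.00109), a call kept in every refit.

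The 3 chromosome 2 alpha-amylases were the alpha-amylases called in TMG against TG, and all 3 rose. TraesCS2A02G289800 had 13.2, 14.3 and 14.6 CPM in TMG and 7.60, 8.85 and 10.2 CPM in TG (0.66 ± 0.13, adjusted p = 0.0124). TraesCS2D02G287800 had 9.55, 11 and 10.6 CPM in TMG and 7.42, 7.10 and 7.57 CPM in TG (0.50, adjusted p = 0.0187), and TraesCS2B02G306400 had 14.1, 13.5 and 13.8 CPM in TMG and 9.92, 10.3 and 11.4 CPM in TG (0.39, adjusted p = 0.0355). For each of the 3 the TMG libraries all lay above the TG libraries. That was a condition for listing a gene among the rises of this comparison, so it adds no support to the calls. The calls of the first 2 were lost without TMG2, TMG3 or TG2 (adjusted p up to 0.055 and 0.0746), and that of TraesCS2B02G306400 also without TMG1 (up to 0.121), without the low-count filter, with all root groups in the fit and with limma on FPKM. In leaves none of these 3 genes was called under either treatment.

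Beta-amylases split into leaf genes that rose with salt and leaf genes that fell. Of 19 tested in TY against CY, 4 rose, 4 fell and 11 were not called (42.1% called, beside 23.3% of all genes tested). Under library-size scaling 6 rose and 2 fell. TraesCS1B02G229000, the most abundant in TMY and TY but not in CY (chromosome 1B, 411153702 to 411156241, minus strand), had 100, 124 and 184 CPM in TY and 21.9, 47.7 and 55.0 CPM in CY (1.77 ± 0.35, adjusted p = 0.00931). TraesCS1A02G215500 had 41.3, 76.6 and 118 CPM in TY and 17.6, 15.3 and 28.8 CPM in CY (2.00 ± 0.38, adjusted p = 0.00807). The D gene of that description on the group 1 chromosomes, TraesCS1D02G218000, had 56.5, 106 and 146 CPM in TY and 42.0, 45.8 and 110 CPM in CY, and its groups overlapped (0.71 ± 0.42, adjusted p = 0.253). For all 3 genes TY3 was the highest TY library, TY1 the lowest and TMY2 the highest TMY library. The TMY2 rank was not particular to them. In TMY the summed starch synthases had 327, 420 and 304 CPM, and the summed glucan phosphorylases 160, 222 and 144 CPM, also with TMY2 highest.

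A set of 3 copies on the group 3 chromosomes held 2 further genes that rose. TraesCS3B02G190600 had 54.3, 62.5 and 50.8 CPM in TY and 26.0, 30.6 and 29.0 CPM in CY (1.03 ± 0.15, adjusted p = 0.00337). TraesCS3D02G167100 had 39.4, 43.8 and 39.3 CPM in TY and 25.0, 30.1 and 23.7 CPM in CY (0.70, adjusted p = 0.0146), and TraesCS3A02G159900 stood at 0.39 (adjusted p = 0.0791). The calls of TraesCS1B02G229000, TraesCS1A02G215500 and TraesCS3B02G190600 were kept in every refit and alternative, and that of TraesCS3D02G167100 was lost only without CY1 (adjusted p = 0.0519). None of these 6 genes was called in TMY against TY, where their log2 fold changes ran between -0.03 and -0.42.

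Of the 4 genes that fell, the 3 on the group 2 chromosomes were nearly silent in roots. TraesCS2B02G240200 had 9.02, 15.2 and 10.0 CPM in TY and 36.8, 22.9 and 37.4 CPM in CY (-1.44 ± 0.26, adjusted p = 0.00632). TraesCS2D02G221000 had 17.7, 23.9 and 17.8 CPM in TY and 42.2, 26.3 and 46.0 CPM in CY (-0.88, adjusted p = 0.0253), and TraesCS2A02G215300 fell by 0.84 (adjusted p = 0.0169). The last 2 calls were lost under library-size scaling and without TY1, TY3 or CY1 (TraesCS2D02G221000 also without CY3), with adjusted p up to 0.0913 and 0.069. With 3-MA added the same 3 genes fell again, and here each call was kept in every refit and alternative. TraesCS2D02G221000 had 3.95, 4.15 and 3.89 CPM in TMY and 17.7, 23.9 and 17.8 CPM in TY (-2.25 ± 0.18, adjusted p = 0.000739). TraesCS2A02G215300 fell by 1.79 and TraesCS2B02G240200 by 1.58 in that comparison. The summed leaf markers moved in the same direction as these genes in both comparisons, and their part in the result was not tested.

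The beta-amylase TraesCS4B02G344300 was called under both treatments, and its leaf comparisons share the TY libraries. It had 1.69, 1.70 and 2.06 CPM in TY and 8.31, 7.13 and 8.65 CPM in CY (-2.08 ± 0.21, adjusted p = 0.001), a call kept in every refit. It was higher in TMY than in TY, at 2.82, 3.03 and 5.25 CPM in TMY, against 1.69, 1.70 and 2.06 CPM in TY (1.08, adjusted p = 0.0418), and lower in TMG, at 0.844, 0.452 and 0.396 CPM, against 1.40, 1.31 and 1.42 CPM in TG (-1.29, adjusted p = 0.0322). The TMY call was lost when any library other than TMY2 was left out (up to 0.126), with limma on FPKM and with a replicate block. The TMG call was lost without TMG2, TMG3, TG2 or TG3 (up to 0.124).

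**Figure D3:**
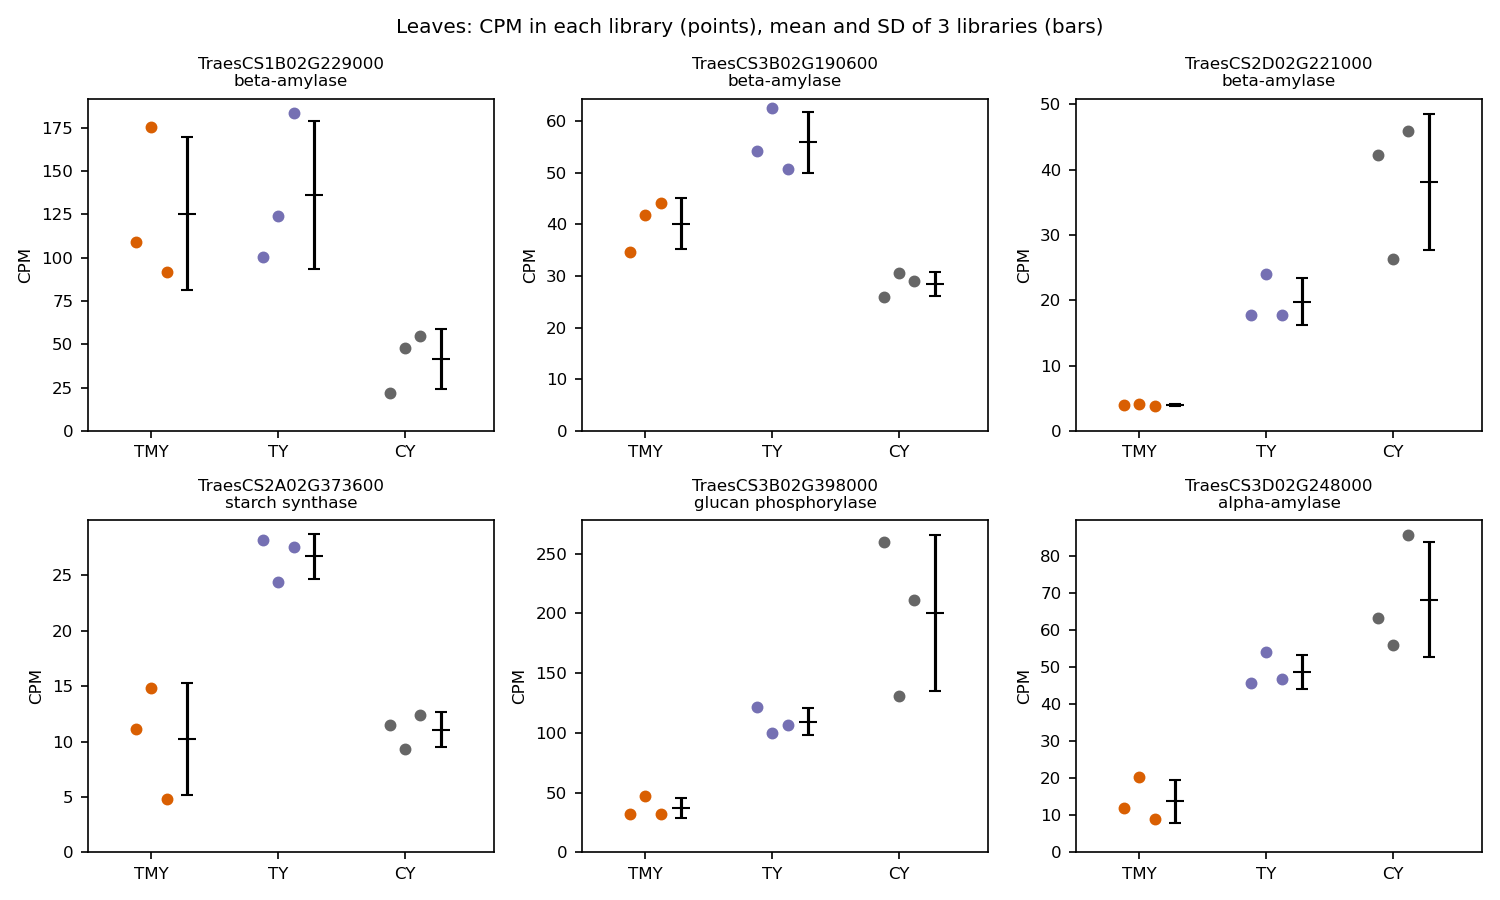
CPM (y axes, from 0) in each leaf library (points) of TMY, TY and CY for 6 starch genes, with mean and SD of the 3 libraries beside them. TraesCS1B02G229000 and TraesCS3B02G190600 were higher in TY than in CY, while TraesCS2D02G221000, TraesCS3B02G398000 and TraesCS3D02G248000 had their lowest values in TMY.

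In roots more beta-amylases fell with salt than rose. Of 18 tested in TG against CG, 8 fell, 1 rose and 9 were not called (50% called, beside 35.6% of all genes tested). Scaled by library size, 4 fell and 2 rose. TraesCS1B02G229000 had 6.98, 4.34 and 3.56 CPM in TG and 9.81, 13.8 and 11.7 CPM in CG (-1.22 ± 0.26, adjusted p = 0.00801), and TraesCS3B02G190600 had 3.77, 3.44 and 3.34 CPM in TG and 5.79, 6.61 and 6.88 CPM in CG (-0.84 ± 0.16, adjusted p = 0.00463). Both calls were kept in every refit. TraesCS1D02G218000 fell by 1.19 (adjusted p = 0.0224), a call lost without TG2, TG3, CG2 or CG3 (up to 0.0778). A further 4, TraesCS3D02G167100, TraesCSU02G078100, TraesCS6A02G085800 and TraesCS6B02G116400, fell by 0.58 to 0.69 on the log2 scale, and each lost its call under library-size scaling and in 3 to 5 of the 6 refits (up to 0.123), always including those without TG2 or CG2. The CG levels of TraesCS1B02G229000 and TraesCS3B02G190600 were 28.4% and 22.5% of their CY levels, and the leaf markers stood at 0.329%. Those markers also fell in TG, and their part in these falls was not tested. The root gene TraesCS4B02G393500 (chromosome 4B, 667875468 to 667880095) fell furthest, with 0.930, 2.05 and 0.195 CPM in TG and 4.57, 6.07 and 9.60 CPM in CG (-2.64 ± 0.61, adjusted p = 0.0114), a call lost only with all root groups in 1 fit. In TMG that gene had 0.272, 0.309 and 5.49 CPM, so 1 library was at the level of CG and the other 2 were not.

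The call in the other direction, TraesCS1B02G165400, had a mean of 0.90 CPM in TG and 0.41 CPM in CG and was lost without any 1 of the 6 libraries (adjusted p up to 0.163); it was also lost without the low-count filter and with a stricter one. In TMG against TG, 16.7% of the 18 beta-amylases tested were called, beside 20.2% of all genes tested. An unadjusted p under 0.05 in either direction was reached by 4 of the 18, and by 25488 of all 73651 genes tested. By the edgeR test 3 of the 18 fell and none rose. The most abundant of them, TraesCS4A02G307900, had 8.49, 8.47 and 8.58 CPM in TMG and 10.8, 10.4 and 12.1 CPM in TG (-0.38, adjusted p = 0.0435), a call lost under DESeq2, under library-size scaling, without the low-count filter and in all refits but that without TG1 (up to 0.143). TraesCS4D02G339400 fell by 1.07 (adjusted p = 0.0413), lost without any TMG library or TG3 (up to 0.131) and with limma on FPKM. TraesCS4D02G006100, the highest beta-amylase per kb in TMG and TG, was not called under any treatment, with log2 fold changes of 0.39 in TG against CG (adjusted p = 0.0512) and -0.13 in TMG against TG.

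On the synthesis side, the starch synthases on chromosome 2 moved in both leaf comparisons. All 3 rose with salt and fell with 3-MA. TraesCS2A02G373600 had 11.2, 14.8 and 4.78 CPM in TMY, 28.1, 24.4 and 27.6 CPM in TY and 11.5, 9.30 and 12.4 CPM in CY. Its change was -1.33 ± 0.34 in TMY against TY (adjusted p = 0.031) and 1.33 ± 0.16 in TY against CY (adjusted p = 0.00167), the second call being kept in every refit. TraesCS2B02G390700 had 9.02, 10.6 and 8.06 CPM in TMY, 32.1, 30.6 and 31.4 CPM in TY and 21.6, 14.4 and 24.4 CPM in CY, with changes of -1.71 ± 0.15 (adjusted p = 0.000881) and 0.70 (adjusted p = 0.0305). TraesCS2D02G369800 followed at -1.33 and 0.75 (adjusted p = 0.0193 and 0.0434). The 2 comparisons share the TY libraries. For the salt rise, the calls of TraesCS2B02G390700 and TraesCS2D02G369800 were lost without CY1 or any TY library, and for the second also without CY2, with all leaf groups in 1 fit and with limma on FPKM (up to 0.113 over the refits). For the 3-MA fall, that of TraesCS2B02G390700 was kept in every refit, and those of the other 2 copies were lost without TMY1 or any TY library (up to 0.093). The leaf markers fell in both comparisons, and their part in these changes was not tested.

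On chromosome 7, the starch synthase TraesCS7B02G018600 had 101, 127 and 92.4 CPM in TMY, 123, 143 and 122 CPM in TY and 179, 181 and 199 CPM in CY. Its TY libraries all lay below its CY libraries, but the change did not pass (-0.46, adjusted p = 0.0557), nor did that in TMY against TY (-0.23, adjusted p = 0.392). TraesCS7D02G117800 was not called in either comparison (-0.36 in TMY against TY and -0.44 in TY against CY), and TraesCS7A02G120300 fell in TMY by 0.68 (adjusted p = 0.022), a call lost in 5 of 6 refits (all but that without TMY2; up to 0.0959) and under library-size scaling. TraesCS1D02G356900 fell in TMY by 0.73 (adjusted p = 0.012), a call lost only without TMY1 (adjusted p = 0.0585). Among all 13 starch synthases tested in leaves, 5 fell and none rose in TMY against TY by the edgeR test. An unadjusted p under 0.05 was reached there by 8 of them, and by 21558 of all 64867 genes tested. In TY against CY 3 rose and 2 fell. The share called was 38.5% in each comparison, beside 18.4% and 23.3% of all genes tested. The 2 that fell with salt, TraesCS1A02G137200 and TraesCS1D02G356900 (-0.47 and -0.55), lost their calls under library-size scaling and without any TY library, CY1 or CY2 (up to 0.139), and the first also without the low-count filter and with all leaf groups in 1 fit.

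In roots 2 starch synthases responded to 3-MA in opposite directions. TraesCS4A02G418200 (chromosome 4A, 688097145 to 688100962) had 0.925, 1.40 and 1.27 CPM in TMG and 5.07, 3.11 and 4.51 CPM in TG (-1.81 ± 0.26, adjusted p = 0.0027), and this fall was called in every refit and alternative. Its rise with salt, from the same TG libraries against 3.08, 2.46 and 2.35 CPM in CG (0.71, adjusted p = 0.0457), was lost in all refits but that without TG2 (up to 0.135) and with limma on FPKM. TraesCS1B02G155700 had 7.43, 6.90 and 7.18 CPM in TMG and 4.34, 4.51 and 5.06 CPM in TG (0.63 ± 0.13, adjusted p = 0.0119), and was lost only without TMG1 (adjusted p = 0.0577). Its copies TraesCS1A02G137200 and TraesCS1D02G138100 both stood at 0.46 without a call. With salt TraesCS7A02G189000 fell, at a mean of 0.385 CPM in TG and 1.85 CPM in CG (-2.22 ± 0.34, adjusted p = 0.00173), in every refit and alternative. TraesCS7A02G120300 fell too, at 2.89, 1.99 and 2.48 CPM in TG and 3.41, 5.43 and 4.33 CPM in CG (-0.81, adjusted p = 0.0303), a call lost without TG2, TG3, CG2 or CG3 (up to 0.115) and under library-size scaling.

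The single annotated starch branching enzyme, TraesCS7D02G535400 (chromosome 7D, 627322122 to 627328145), fell with 3-MA in roots. It had 2.42, 2.05 and 2.01 CPM in TMG and 5.53, 5.22 and 5.70 CPM in TG (-1.35 ± 0.15, adjusted p = 0.001). The call was kept in every refit and alternative. Salt alone gave -0.16 in roots and -0.37 in leaves, neither called, and TMY against TY gave -0.47 (adjusted p = 0.237). Isoamylase 3, TraesCS5D02G255800, which in Arabidopsis acts in leaf starch breakdown, had 15, 14.3 and 12.7 CPM in TY and 22.6, 18.8 and 23.7 CPM in CY (-0.57 ± 0.15, adjusted p = 0.0279). That call was lost in all refits but that without CY2 (up to 0.112), under library-size scaling and with all leaf groups in 1 fit.

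**Figure D4:**
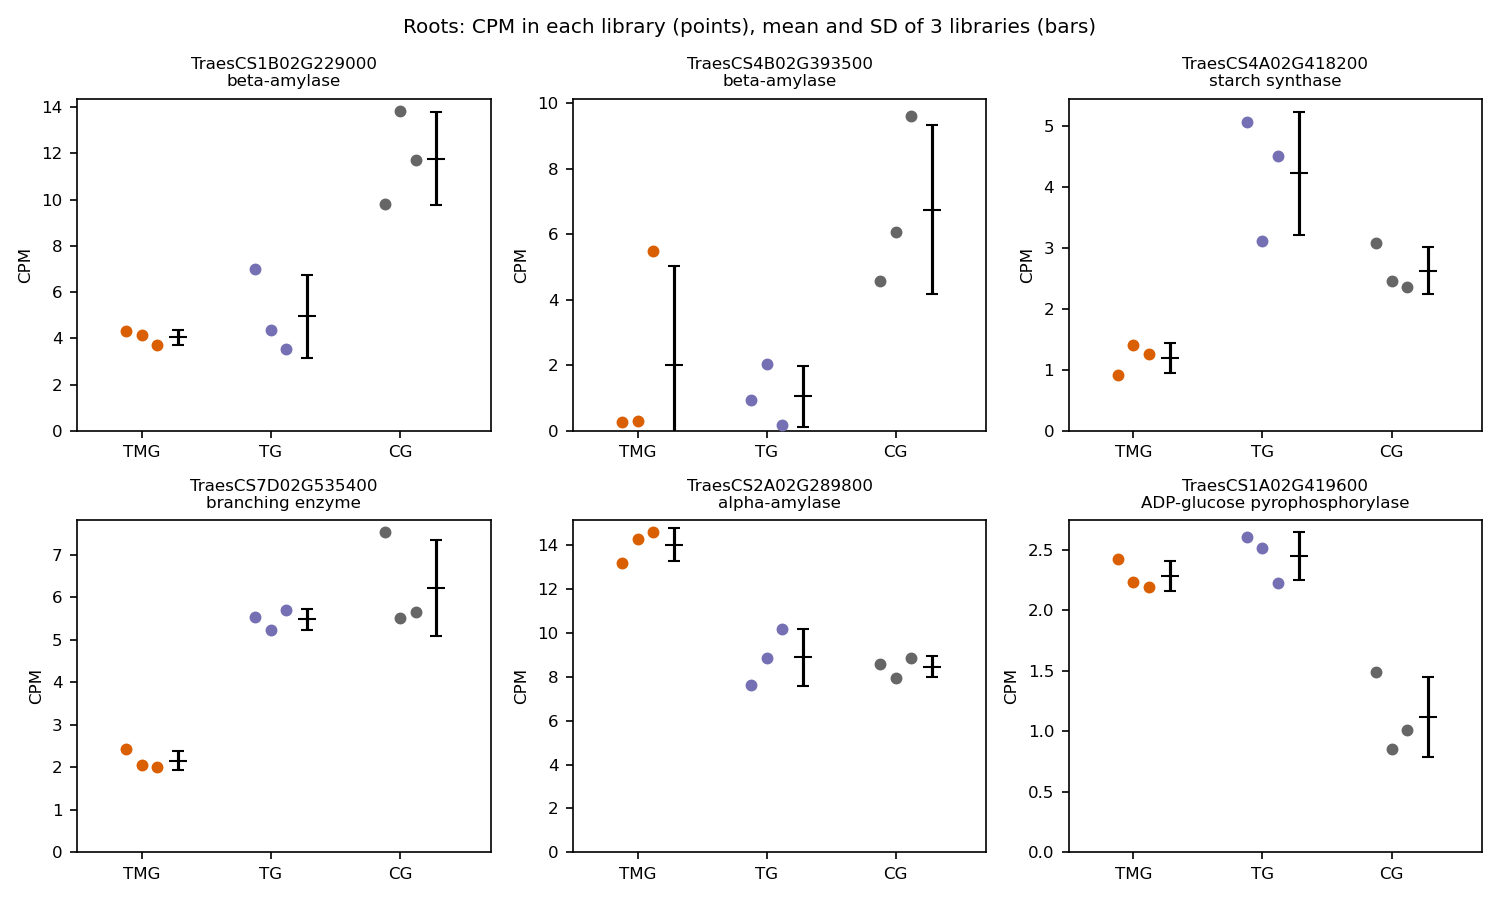
CPM (y axes, from 0) in each root library (points) of TMG, TG and CG for 6 starch genes, with mean and SD of the 3 libraries beside them. TraesCS7D02G535400 and TraesCS4A02G418200 were lowest in TMG, TraesCS2A02G289800 was highest in TMG, and TraesCS4B02G393500 had 1 of 3 TMG libraries at 5.49 CPM, where the SD bar is cut at 0.

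Of the 11 ADP-glucose pyrophosphorylase genes, 3 fell and none rose in TMY against TY by edgeR (4 at an unadjusted p under 0.05). In TY against CY 1 rose and 2 fell, and in TG against CG 1 of 9 tested rose. None was called in TMG against TG (2 at an unadjusted p under 0.05). The shares called were 27.3%, 27.3%, 11.1% and 0% in that order, beside 18.4%, 23.3%, 35.6% and 20.2% of all genes tested. An unadjusted p under 0.05 was reached by 21558 of all 64867 genes tested in TMY against TY and by 25488 of 73651 in TMG against TG. Scaled by library size, 2 fell in TMY against TY, 2 rose and none fell in TY against CY, and 4 rose in TG against CG. The 3 chromosome 7 copies were called in none of the treatment comparisons. TraesCS7A02G287400 had 65.8, 79.3 and 62.1 CPM in TMY, 68.5, 78.5 and 73.7 CPM in TY and 78.1, 89.0 and 87.4 CPM in CY (-0.04 and -0.15 on the log2 scale for TMY against TY and TY against CY, SE 0.15 and 0.14). TraesCS7B02G183300 had log2 fold changes of -0.11 and 0.12 in the same comparisons, and -0.17 in TMG against TG and 0.23 in TG against CG. TraesCS7D02G284900 came nearest to a call, at 0.36 in TG against CG (adjusted p = 0.0543).

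TraesCS5D02G182600 (chromosome 5D, 283489428 to 283493808) showed the largest fall of any starch gene in TMY among those above a mean log2 CPM of 1. It had 3.66, 3.80 and 2.68 CPM in TMY, 25.1, 18.6 and 20.3 CPM in TY and 9.10, 5.67 and 15 CPM in CY. The change was -2.60 ± 0.20 in TMY against TY (adjusted p = 0.000695), called in every refit, and 1.17 ± 0.31 in TY against CY (adjusted p = 0.0264), lost without TY1, TY3 or CY1 (up to 0.0859). Both changes use the same TY libraries. TraesCS5B02G175800 fell by 1.64 in TMY from low levels, at a mean of 0.86 CPM in TMY and 2.80 CPM in TY (adjusted p = 0.00745, called in every refit). A further 3 pyrophosphorylases on the group 5 chromosomes were abundant in leaves and scarce in roots. TraesCS5A02G472000 and TraesCS5D02G484500 fell with salt in leaves by 0.57 and 0.76 (adjusted p = 0.0351 and 0.0336), and TraesCS5B02G484700 was not called at -0.42 (adjusted p = 0.121). The calls of the first 2 were lost under library-size scaling and without any TY library, CY1 or CY3 (up to 0.127). The leaf markers were lower in TY than in CY too, and their part was not tested.

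A further pyrophosphorylase, TraesCS1A02G419600, rose with salt in roots. It had 2.61, 2.51 and 2.23 CPM in TG and 1.49, 0.857 and 1.01 CPM in CG (1.15 ± 0.28, adjusted p = 0.0129), with the call kept in every refit. The copies TraesCS1B02G449700 and TraesCS1D02G427400 had log2 fold changes of -0.69 and -0.04 and were not called. In leaves TraesCS1A02G419600 fell in TMY, at 2.77, 3.51 and 3.28 CPM, against 6.04, 6.15 and 4.51 CPM in TY (-0.75, adjusted p = 0.0414), a call lost without TMY1, TMY3, TY1 or TY2 (up to 0.151) and under library-size scaling.

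Whether a gene answered differently in roots and leaves was tested directly, as the root change minus the leaf change. For salt, 4 of 67 starch genes had a more positive change in roots and 7 a more negative one, 16.4% called against 11.1% of all genes tested (6.17% more positive and 4.91% more negative). For 3-MA, 6 of 68 were more positive in roots and 1 more negative, 10.3% against 10.5% of all genes (3.4% more positive and 7.12% more negative). Of the 7 more negative in roots under salt, 5 were beta-amylases: TraesCS1B02G229000 (-3.01 ± 0.49, adjusted p = 0.00247), TraesCS1A02G215500 (-2.45), TraesCS3B02G190600 (-1.89 ± 0.20, adjusted p = 0.000209), TraesCS3D02G167100 (-1.30) and TraesCS3A02G159900 (-0.76). All of these but the last, which was lost without TY2 (adjusted p = 0.059), were called in every refit. Among the called genes the most positive difference was that of TraesCS4B02G344300 (2.10 ± 0.37, adjusted p = 0.00378), followed by the phosphorylase TraesCS3B02G398000 (1.87 ± 0.35, adjusted p = 0.00523), and both were called in every refit.

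For 3-MA the 1 gene called more negative in roots was TraesCS4B02G344300 (-2.45 ± 0.46, adjusted p = 0.00681). The difference was called for 3 of 6 glucan phosphorylases, TraesCS5A02G395200 (1.68 ± 0.41, adjusted p = 0.0224), TraesCS3B02G398000 (1.49 ± 0.29, adjusted p = 0.00885) and TraesCS5B02G400000 (0.94 ± 0.27, adjusted p = 0.0445). In roots TraesCS5A02G395200 rested on few counts, at a mean of 0.42 CPM in TMG and 0.26 CPM in TG, and its root change was not called. The starch synthase TraesCS1B02G155700, higher in TMG than in TG and without a call in leaves, had a difference of 1.11 ± 0.24 (adjusted p = 0.0146). TraesCS4B02G344300, TraesCS3B02G398000 and TraesCS1B02G155700 were called in every refit, TraesCS5A02G395200 was lost without TG2, TMG1 or TMG3 (up to 0.0583), and TraesCS5B02G400000 was kept in 3 of the 12 refits and lost under library-size scaling. Scaled by library size, 3 genes were more positive in roots and 2 more negative. The count of 7 depended on the tool, with 17 by DESeq2, 11 with all 6 groups in 1 fit and 25 with limma on log2(FPKM + 1), and ranged from 4 (without any TMG library, TG3, TMY3 or TY1) to 12 (without TMY2).

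**Figure D5:**
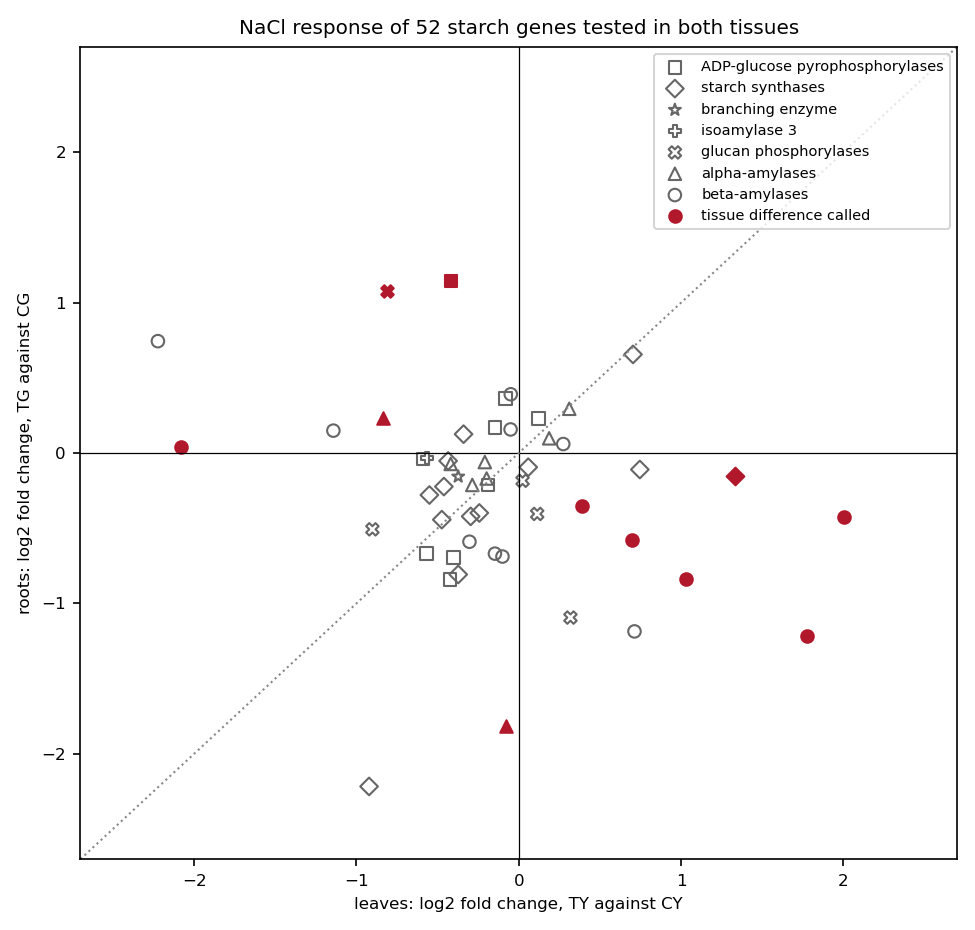
Log2 fold change with NaCl in leaves (TY against CY, x axis) and in roots (TG against CG, y axis) for the 52 starch genes tested in both tissues, by role (symbols), with filled symbols for the 11 genes whose tissue difference was called. The dotted line marks equal change, and 5 filled circles (beta-amylases) lie at the lower right, with positive values in leaves and negative ones in roots.

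Wheat carries 3 related genomes, A, B and D, and 42 of the 111 genes formed 14 sets of 3 copies by role, chromosome group and order. In TMY against TY, 10 sets had all 3 copies tested, 9 of them had 1 sign throughout and 4 had all 3 copies called in the same direction. The corresponding counts were 10, 6 and 1 in TY against CY, 9, 4 and 0 in TG against CG, and 10, 6 and 1 in TMG against TG. In none of these comparisons was a set called in both directions. The median range between the copies' log2 fold changes was 0.33, 0.53, 0.44 and 0.37 in that order. The same counts were not made over all A, B and D sets of the table, so these have no background to be read against. Copies were matched without comparing their sequences. Reads of nearly identical copies can be assigned to the wrong copy, and how the counting handled them is not given in the sources used here, so values of single copies are less certain than those of a set.

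Of 10 further genes of the pathway, 6 were glucose-6-phosphate isomerases, which interconvert the hexose phosphates used by starch synthesis and glycolysis. In TG against CG 4 of the 6 fell and in TY against CY 3 did. Over all genes tested, 17.1% were lower in TG against CG, 13.2% in TY against CY and 9.94% in TMY against TY. TraesCS5D02G253700 had a mean of 45.2 ± 10.6 CPM in TG and 89.8 ± 15.6 CPM in CG (SD, n = 3 each; -0.96 ± 0.21, adjusted p = 0.00823). In TMY against TY 4 of the 6 fell, from -0.66 to -0.98, and none was called in TMG against TG. The limit dextrinase TraesCS7A02G133500, a debranching enzyme, fell in roots under both treatments, with means of 2.04 CPM in TMG, 5.01 CPM in TG and 11.4 CPM in CG (-1.30 ± 0.18, adjusted p = 0.00232 for TMG against TG, and -1.15 ± 0.17, adjusted p = 0.00137 for TG against CG). Among the 4-alpha-glucanotransferases, which transfer glucan segments between chains, TraesCS2A02G159300 rose with 3-MA in both tissues. It changed by 0.61 in TMG against TG (adjusted p = 0.0241) and by 0.82 in TMY against TY (adjusted p = 0.0358). Refits without a library and other scalings are not given for these 10 genes, so their calls are not shown to hold under them.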

How the data were processed

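RNA was sequenced from 18 libraries in 6 groups of 3. The deposited table holds raw counts per gene, FPKM values and gene lengths, made by the authors, who per their methods mapped reads to the Chinese Spring assembly. The deposited submitters' notes name HISAT2 2.0.5, Bowtie 0.12.2 and a mouse build, which cannot be that of these wheat genes. The counting tool is not given in the sources used here. The labels and the study also differ in the library kit and in the number of replicates stated. Columns of pairwise fold changes and p-values by the authors were not used.

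Counts of all genes were tested with edgeR 4.0.16 (R 4.3.3): filterByExpr, TMM factors, quasi-likelihood test, Benjamini-Hochberg adjustment over all genes tested, called at 0.05 or less. The SE was taken from the fold change and the F statistic. Each comparison of 2 groups used its 6 libraries, and each tissue difference 12. Each p-value sets a difference between groups against the spread between these pooled samples, estimated with information shared across genes. The script was tested on simulated data. Alternatives were DESeq2 1.42.0, other size factors, filters and gene sets, all groups in 1 fit, a replicate block, limma 3.58.1 on log2(deposited FPKM + 1), a fold change minimum, and leaving out each library.

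Genes were named as the highest of each role per kb in roots and in leaves, then, in each treatment comparison, the 4 largest rises and 4 largest falls taken from calls whose groups did not overlap and whose average log2 CPM reached 1, and the 3 smallest p-values in each tissue difference, with their copies. TraesCS7A02G189000, TraesCS7D02G064300, TraesCS5B02G175800, TraesCS1B02G165400, TraesCS4D02G339400, TraesCS1D02G356900, TraesCS1A02G137200, TraesCSU02G078100, TraesCS6A02G085800, TraesCS6B02G116400, TraesCS5B02G484700 and TraesCS5A02G513200 were chosen after their values were seen. Members and lists were chosen with earlier results of these data known.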

Additional observations from a re-analysis of the deposited data

Results flagged for a closer look

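Each gene here had a change that differed between roots and leaves in the edgeR test of the difference (root change minus leaf change, log2 scale, adjusted p of 0.05 or less).

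For NaCl, 7 genes had a more negative change in roots. The beta-amylases among them were TraesCS1B02G229000 (-3.01), TraesCS1A02G215500 (-2.45), TraesCS3B02G190600 (-1.89), TraesCS3D02G167100 (-1.30) and TraesCS3A02G159900 (-0.76). The others were the alpha-amylase TraesCS7B02G286700 (-1.76), lost without 7 of the 12 libraries (TG2, CG2, CG3, TY2, TY3, CY1 or CY3; adjusted p up to 0.0727), and the starch synthase TraesCS2A02G373600 (-1.51). The 4 genes with a more positive change in roots were the beta-amylase TraesCS4B02G344300 (2.10), the glucan phosphorylase TraesCS3B02G398000 (1.87), the ADP-glucose pyrophosphorylase TraesCS1A02G419600 (1.54) and the alpha-amylase TraesCS3A02G248000 (1.04).

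For 3-MA under NaCl, the difference was -2.45 in TraesCS4B02G344300. It was positive in the glucan phosphorylases TraesCS5A02G395200 (1.68), TraesCS3B02G398000 (1.49) and TraesCS5B02G400000 (0.94), in the alpha-amylases TraesCS3D02G248000 (1.23) and TraesCS3B02G276700 (0.94) and in the starch synthase TraesCS1B02G155700 (1.11). The calls of TraesCS5B02G400000, TraesCS3D02G248000 and TraesCS3B02G276700 were lost under library-size scaling and in 9, 11 and 10 of 12 refits. That of TraesCS5A02G395200 was lost without TMG1, TMG3 or TG2 (adjusted p up to 0.0583), and its root means were 0.42 CPM in TMG and 0.26 CPM in TG.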

How the results depend on the processing

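With a log2 fold change of at least 1 also required, 8 starch genes were called in TG against CG, 4 in TMG against TG and 7 in TY against CY. The tissue difference in the 3-MA response gave 17 calls by DESeq2, 11 with all groups in 1 fit and 25 with limma on log2(FPKM + 1), beside 7 in the test reported. The cause was not tested. With 1 library left out, counts ranged from 7 to 17 in TG against CG, 3 to 12 in TMG against TG, 8 to 17 in TY against CY and 11 to 27 in TMY against TY. They ranged from 10 to 13 and 4 to 12 for the tissue differences in the NaCl and 3-MA responses, and from 55 to 58 in CG against CY. The low-count filter was run again in each refit. The genes tested could therefore change, and these counts are not like for like with those of the main fit. Of the single-gene results, TraesCS2D02G287800 in CG against CY turned to 0.00791 under library-size scaling (adjusted p = 0.976). Over 720 alternatives to 80 results of named genes, apart from libraries left out, 690 kept direction and call and 29 lost the call. With 1 library left out, 458 of 552 refits of these results kept the call and 94 lost it. These results include CG against CY, and many of the genes were named for large changes, so they do not stand for all calls. With a replicate block the counts were 13, 8, 16 and 17 in TG against CG, TMG against TG, TY against CY and TMY against TY, 12 and 6 for the tissue differences in the NaCl and 3-MA responses, and 52 in CG against CY. Deviations of same-numbered libraries correlated between -0.106 and 0.0817 in the groups checked, so the numbers were not taken to pair samples. Roots were set against leaves only for CG and CY (0.0817, 0.0566 and 0.0316), so a pairing of roots with leaves under treatment was not checked. Genes below about 1 CPM rest on few counts.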
